A study of Mus musculus with 6 samples.

Results

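Genes of ribosome biogenesis and the nucleolus were followed in sorted leukaemic mouse progenitors with and without an inducible intracellular domain of Notch1. The list held 44 genes chosen for their known roles, with earlier results of these data known. Of these, 43 had a probe set with a single gene name among the 18194 genes of the array data. Mrto4, which encodes a 60S assembly factor, matched only a probe set that also carries the names of pseudogenes, and it was not analysed here. Where a gene had several probe sets the brightest over the 6 arrays was used, and all 43 lay above the median gene by mean level.

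The nucleolus is the site where RNA polymerase I transcribes the ribosomal RNA genes. Small nucleolar ribonucleoproteins (snoRNPs) guide the cleavage and chemical modification of the transcript, and separate sets of assembly factors build it into the large (60S) and the small (40S) subunit. Output of this pathway rises with cell growth, and the transcription factor Myc is known to activate many of its genes.

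The cells came from MLL-AF9 leukaemia, a mouse model of acute myeloid leukaemia, in 2 genotypes with 3 samples each. The WT group was MLL-AF9 EF1αwt/wt ROSAwt/CreERT2, and the N1-IC group carried EF1αwt/lsl-N1-IC in place of EF1αwt/wt, in which a tamoxifen-dependent Cre recombinase can release the Notch1 domain from the EF1α locus. Irradiated wild-type recipients aged 12 weeks received 50000 cKit+ cells that had been infected with MLL-AF9-IRES-YFP, together with 250000 wild-type support marrow cells. After 4 weeks both groups were given tamoxifen in 2 injections of 0.2 mg per g body weight, and cells were taken 6 days after the last one. LGMP, as the labels name them, were sorted as lineage-negative, cKit+, Sca1-, YFP+, CD34+ and FcgRII/III+ bone marrow cells. The labels give male for every WT sample and female for every N1-IC sample, so genotype and sex cannot be told apart in any difference given here. Of the 43 genes, 1 (Dkc1) lies on chromosome X. The labels do not say how many mice stood behind a sample, so the p-values cover only the spread among these samples, which may be technical.

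Of 8 genes of the gate and of myeloid progenitors, 4 had a lower and 4 a higher mean in N1-IC, with Mpo at 13.80 to 14.11 and Kit at 10.23 to 10.76 log2 units over the arrays. Cd34, a marker of the sort, was at 11.69, 11.52 and 11.33 in WT and at 11.04, 10.05 and 11.28 in N1-IC. Its groups did not overlap, the log2 fold change was -0.72, and N1-IC replicates 2 and 1 were lowest, as for many of the nucleolar genes. Fcgr3, of the same gate, had -0.25 with overlapping groups. The gene of Sca1 was not analysed here. WT replicate 2 stood apart: its mean over 9 erythroid and megakaryocyte markers was 8.50, against 6.29 to 6.97 on the other arrays. Klf1, the erythroid transcription factor, was at 10.04 there and at 5.46 to 6.25 elsewhere. Ermap, Gata1, Epor, Tfrc and Pf4 were also highest on that array, while Itga2b, Gp9 and Hba-a1 lay there within the range of the other arrays. The same array had the non-coding RNA Xist at 10.70, against 5.64 and 5.42 on the other WT arrays and 12.73 to 12.82 on the N1-IC arrays. Eif2s3y, on chromosome Y, was at 10.34 there, against 11.31 and 11.26 on the other WT arrays and 2.94 to 3.46 on the N1-IC arrays. Uty and Kdm5d, also on chromosome Y, were at 6.70 and 6.88 there, the lowest of the WT arrays. Xist on WT replicate 2 thus lay between the other arrays labelled male and the arrays labelled female, and its source was not tested. WT replicate 1 was low in 11 late granulocyte markers, with a mean of 7.47 against 9.74 to 10.44 on the other arrays. All 11 had a higher mean in N1-IC, with a median log2 fold change of 0.87, and Mmp9 was higher on every N1-IC array (8.59 to 9.27 against 4.14 to 7.36). The erythroid and megakaryocyte markers had a lower mean in N1-IC for 6 of 9, with a median of -0.50. The part of these transcripts in the values of the nucleolar genes was not tested. In bulk RNA, fewer cells of a type and less RNA per cell cannot be told apart. Array medians of 49.6 to 51.0 intensity units show that the arrays had been scaled alike, so each value is relative to the other genes of its array.

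No gene of ribosome biogenesis passed the test between the genotypes, but most had a lower mean in N1-IC. Of the 43 genes, 0 were called by limma at an adjusted p under 0.05, where 0.0055% of all genes were called. The 1 gene called was Eif2s3y on chromosome Y, with a log2 fold change of -7.75 and a limma adjusted p of 0.00229. The smallest adjusted p among the 43 genes was 0.618. At an unadjusted p under 0.05 there were 5, all with a lower mean in N1-IC, where 3.84% of all genes were lower and 4.14% higher at that level. The mean was lower in N1-IC for 36 of the 43 genes. Over all genes 47.4% had a lower mean, and 55.3% did among those at or above the median level. The median log2 fold change of the 43 genes was -0.18, a level of 0.880 of WT, and that of all genes was 0.012. Single log2 fold changes ran from -0.52 to 0.21.

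**Figure D1:**
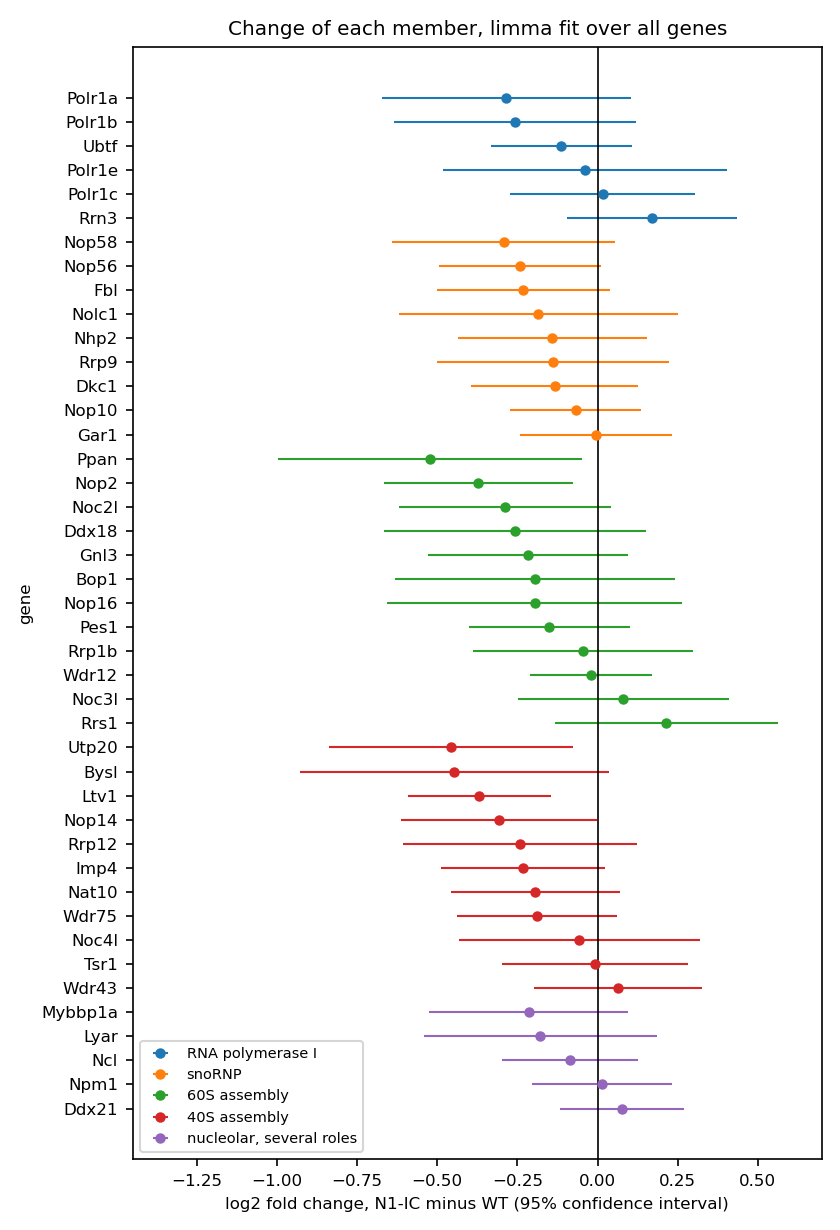
Log2 fold change (N1-IC minus WT, x axis) of the 43 genes from the limma fit over 18194 genes, with 95% confidence intervals, coloured and ordered by step of the pathway. Most points lie below 0, and 5 intervals (Ppan, Utp20, Nop2, Ltv1 and Nop14) do not reach 0.

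The low values lay mainly on 2 of the 3 N1-IC arrays. Relative to each gene's mean over the 6 arrays, the median of the 43 genes was 0.047, 0.157 and 0.030 log2 units on the arrays of WT replicates 1, 2 and 3. It was -0.107 and -0.187 on N1-IC replicates 1 and 2, and 0.061 on N1-IC replicate 3, which lay inside the WT range. The same medians over all genes stayed between -0.019 and 0.011. N1-IC replicate 2 held the lowest of the 6 values for 23 of the 43 genes and N1-IC replicate 1 for 11. WT replicate 2, the array with erythroid transcripts, held the highest value for 20. N1-IC replicate 3 was the highest of the N1-IC arrays for 38 genes. For 27 of the 43 it lay within the range of the WT arrays, where it did so for 52.1% of all genes. How often each array was the lowest or highest over all genes was not counted.

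**Figure D2:**
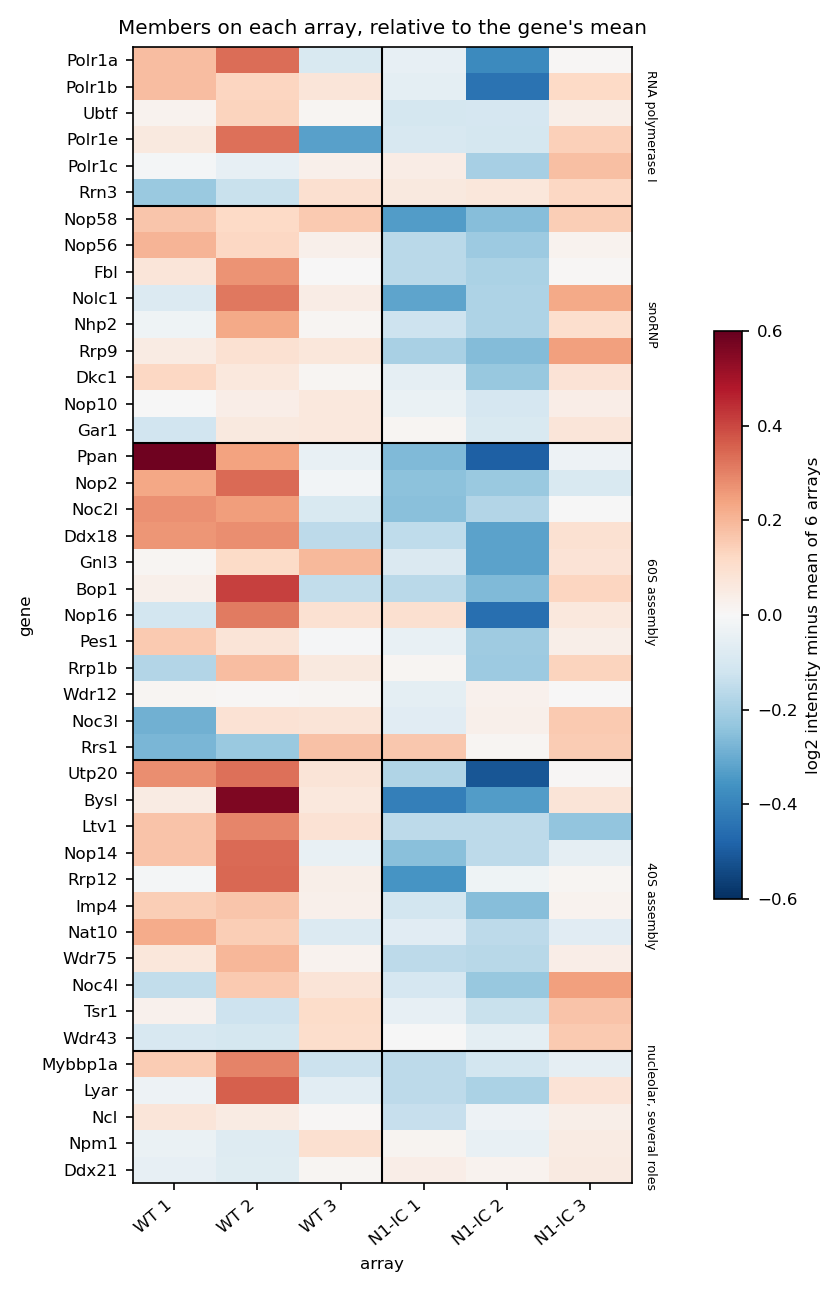
Log2 intensity of each gene on each array minus the gene's mean over the 6 arrays (colour scale from -0.6 to 0.6), with genes in rows by step and arrays in columns. Columns of N1-IC replicates 1 and 2 are mostly blue (median -0.107 and -0.187), and the column of N1-IC replicate 3 resembles the WT columns (median 0.061).

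Complete separation of the groups was less common than a lower mean. For 6 genes (Utp20, Ltv1, Nop14, Imp4, Nop2 and Nop56) every N1-IC array was below every WT array, which is 14.0% of the 43, where 6.52% of all genes and 8.79% of those at or above the median level separated this way. Of the 43 genes only Ddx21 separated the other way, with N1-IC higher, where 8.32% of all genes separated upwards. After a further quantile normalization 4 of the 43 genes and 6.00% of all genes separated downwards, and with arrays centred on their medians Ddx21 no longer separated. Without N1-IC replicate 3 the groups separated downwards for 25 of the 43 genes (13.1% of all genes), and without WT replicate 3 for 17 (15.3% of all genes). Without WT replicate 2 the median log2 fold change was -0.12, with 34 of 43 genes lower. Without N1-IC replicate 2 it was -0.099, with 31 of 43 lower. No gene of the list was called by limma in any of these fits.

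The 5 genes with the lowest log2 fold changes, Ppan, Utp20, Bysl, Nop2 and Ltv1, encode assembly factors of both subunits. Ppan, a 60S assembly factor homologous to yeast Ssf1, was at 10.72, 10.39 and 10.10 log2 units in WT and at 9.88, 9.65 and 10.11 in N1-IC. WT replicate 3 and N1-IC replicate 3 were level with each other, so the groups overlapped. Its log2 fold change was -0.52 ± 0.20 (standard error), or 0.696 of the WT level, with a limma adjusted p of 0.618.

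Utp20, a component of the small subunit processome, was at 9.36, 9.41 and 9.16 in WT and at 8.90, 8.57 and 9.09 in N1-IC. All N1-IC arrays were lower than all WT arrays, with a gap of 0.069 between the nearest arrays, and the log2 fold change was -0.46 ± 0.16. Bysl (bystin), which takes part in late 40S maturation, was at 9.63, 10.14 and 9.64 in WT and at 9.17, 9.24 and 9.66 in N1-IC. N1-IC replicate 3 lay above 2 of the WT arrays, and the log2 fold change was -0.45 ± 0.20. Its other probe set gave -0.35.

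Nop2, a methyltransferase of the large subunit RNA, was at 9.98, 10.09 and 9.73 in WT and at 9.50, 9.53 and 9.66 in N1-IC. The groups did not overlap, and the log2 fold change was -0.37 ± 0.12. Ltv1, which accompanies the 40S precursor out of the nucleus, was at 10.75, 10.88 and 10.67 in WT and at 10.43, 10.43 and 10.35 in N1-IC. It was the only gene of these 5 for which N1-IC replicate 3 was the lowest of all arrays. With a log2 fold change of -0.37 ± 0.09 it had the smallest unadjusted limma p of the list (0.00673), which became 0.618 after adjustment over all genes.

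**Figure D3:**
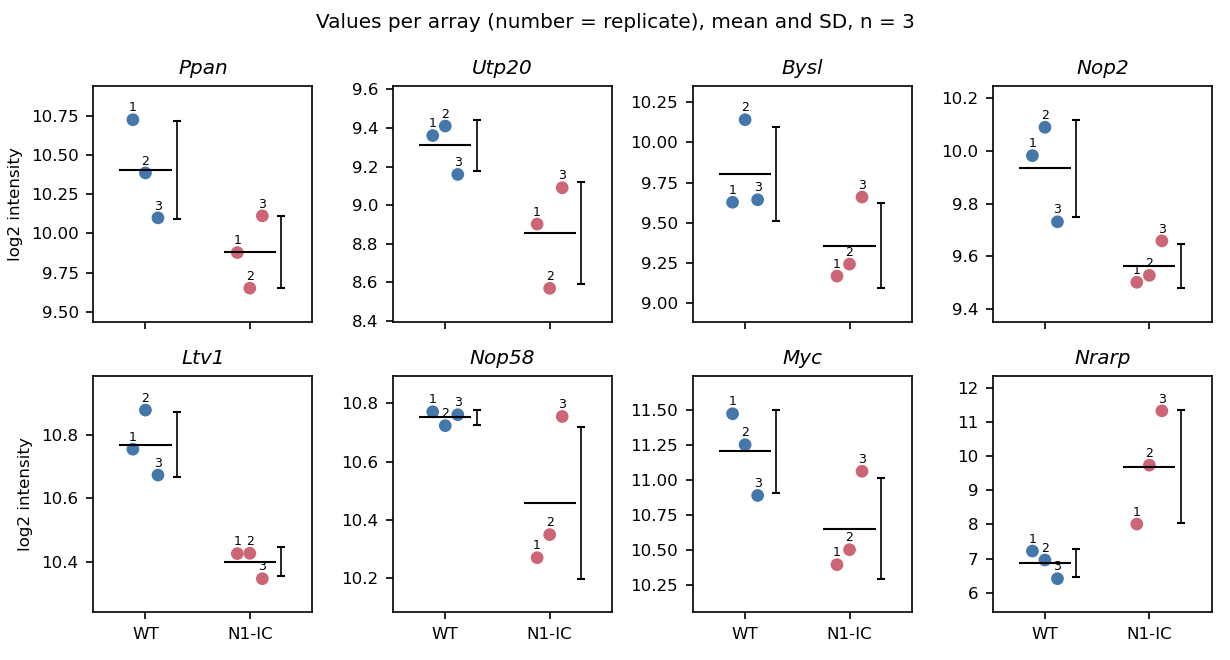
Log2 intensity per array (y axis, a separate scale in each panel) for 6 genes of the list and for Myc and Nrarp, with replicate numbers, group means (lines) and SD (bars, n = 3). For Ltv1, Nop2 and Utp20 the groups do not overlap, while for Ppan, Bysl, Nop58 and Myc N1-IC replicate 3 lies in the WT range.

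The promoters of these 5 genes are shown because they head the list and because sequence letters were not used to choose the genes. Each is the RefSeq window of 250 bases before to 50 bases after the gene start in build GRCm38.p6, printed 5′ to 3′ on the strand of the gene. Capitals mark matches on either strand to CACGTG (the E-box that Myc and Max are known to bind) and to CCGGAAG (a core recognised by ETS factors), and no 2 of these matches overlap.
Ppan, chr9:20887925-20888224, plus strand: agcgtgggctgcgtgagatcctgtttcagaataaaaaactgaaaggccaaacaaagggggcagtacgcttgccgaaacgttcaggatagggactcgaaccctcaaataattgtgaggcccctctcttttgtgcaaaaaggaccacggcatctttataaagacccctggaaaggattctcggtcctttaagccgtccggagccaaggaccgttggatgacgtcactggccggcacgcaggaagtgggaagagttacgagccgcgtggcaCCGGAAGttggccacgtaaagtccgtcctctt
Utp20, chr10:88826765-88827064, minus strand: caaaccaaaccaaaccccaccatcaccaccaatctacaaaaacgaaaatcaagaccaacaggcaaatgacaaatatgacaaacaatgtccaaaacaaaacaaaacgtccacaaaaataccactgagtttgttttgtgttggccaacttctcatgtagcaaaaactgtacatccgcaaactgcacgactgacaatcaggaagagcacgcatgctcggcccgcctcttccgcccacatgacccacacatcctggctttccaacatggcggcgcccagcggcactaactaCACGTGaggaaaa
Bysl, chr17:47611443-47611742, minus strand: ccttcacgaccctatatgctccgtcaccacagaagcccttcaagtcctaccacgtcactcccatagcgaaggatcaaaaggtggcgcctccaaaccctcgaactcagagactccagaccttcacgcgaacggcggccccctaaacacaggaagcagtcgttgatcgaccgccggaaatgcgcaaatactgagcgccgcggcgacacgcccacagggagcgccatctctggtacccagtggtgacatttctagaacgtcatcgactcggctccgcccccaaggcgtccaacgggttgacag
Nop2, chr6:125131633-125131932, plus strand: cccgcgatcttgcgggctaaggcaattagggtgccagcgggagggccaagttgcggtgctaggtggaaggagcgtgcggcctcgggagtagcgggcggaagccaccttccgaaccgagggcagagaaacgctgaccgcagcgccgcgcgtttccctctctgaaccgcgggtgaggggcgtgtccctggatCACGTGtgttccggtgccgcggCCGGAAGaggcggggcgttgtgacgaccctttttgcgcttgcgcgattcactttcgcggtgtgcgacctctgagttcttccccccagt
Ltv1, chr10:13193088-13193387, minus strand: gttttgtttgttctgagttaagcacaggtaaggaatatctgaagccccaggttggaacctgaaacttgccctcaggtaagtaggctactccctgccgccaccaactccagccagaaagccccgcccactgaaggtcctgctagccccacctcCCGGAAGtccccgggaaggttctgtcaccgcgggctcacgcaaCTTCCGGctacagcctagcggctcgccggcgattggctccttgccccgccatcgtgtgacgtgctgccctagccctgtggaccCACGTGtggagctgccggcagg
Nop2, Utp20 and Ltv1 each hold 1 CACGTG, Ppan, Nop2 and Ltv1 hold CCGGAAG, and the window of Bysl holds neither. Of the 43 genes, 38 matched a RefSeq promoter entry. CACGTG was in a promoter of 9 of these 38 genes (23.7%): Rrn3, Nop2, Pes1, Utp20, Wdr43, Tsr1, Ltv1, Imp4 and Mybbp1a. It was in 10.2% of the 14453 array genes with a promoter entry and in 7.15% of all 32851 promoter windows. The median log2 fold change was -0.21 for the 9 genes with the letters and -0.18 for the 29 without. CCGGAAG was in a promoter of 12 of the 38 genes (31.6%), against 15.0% of array genes and 8.86% of all windows, and the median log2 fold change was -0.090 for these 12 and -0.19 for the 26 without. AAGATGGC, the core of a YY1 motif, was in 1 of the 38 (2.63%), that of Imp4, against 4.07% of array genes and 2.75% of all windows. A match is a description of letters and shows no binding.

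The RNA polymerase I genes had the least uniform direction of the 4 steps, with 4 of 6 lower and a median log2 fold change of -0.077. Polr1a and Polr1b encode the largest and second-largest subunits of the enzyme. Polr1a was at 8.72, 8.87 and 8.44 in WT and at 8.48, 8.15 and 8.54 in N1-IC, with overlapping groups and a log2 fold change of -0.28 ± 0.16. All 5 of its probe sets had a lower mean in N1-IC, and 2 of them (-0.35 and -0.67) separated the groups, while 2 others were at 2.32 to 2.66 log2 units on all arrays. Polr1b had a log2 fold change of -0.26 ± 0.16, and N1-IC replicate 2 stood lowest at 7.56 against 7.95 to 8.19 on the other arrays. Polr1e and Polr1c, which encode further subunits (Polr1c is shared with RNA polymerase III), had -0.04 and 0.016. The other Polr1e probe set had -0.31, and the other Polr1c probe set had -0.23.

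The transcription factors of the polymerase differed in sign. Ubtf, which opens ribosomal DNA for transcription, had a log2 fold change of -0.11 ± 0.09. Rrn3, the factor that recruits the initiation-competent polymerase, was at 11.78, 11.87 and 12.10 in WT and at 12.06, 12.07 and 12.13 in N1-IC. WT replicate 3 lay among the N1-IC values, and the log2 fold change was 0.17 ± 0.11.

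All 9 snoRNP genes had a lower mean in N1-IC, with a median log2 fold change of -0.14, though Gar1 was at 0.011 once arrays were centred on their medians. In the box C/D class, which guides ribose methylation, Nop56 was at 11.81, 11.73 and 11.64 in WT and at 11.45, 11.39 and 11.63 in N1-IC. The groups separated by 0.0089 log2 units between WT replicate 3 and N1-IC replicate 3, and the log2 fold change was -0.24 ± 0.10. The other Nop56 probe set also separated them, with -0.41. Its partner Nop58 was at 10.77, 10.72 and 10.76 in WT and at 10.27, 10.35 and 10.75 in N1-IC. N1-IC replicates 1 and 2 were below all WT arrays, N1-IC replicate 3 was at the WT level, and the log2 fold change was -0.29 ± 0.14. Fbl, the methyltransferase fibrillarin of the same particle, had -0.23 ± 0.11, and Rrp9, a protein specific to the U3 particle, had -0.14 ± 0.15 with N1-IC replicate 3 the highest of all arrays at 8.37.

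Genes of the box H/ACA class, which guides pseudouridine formation, had log2 fold changes from -0.14 to -0.004. Dkc1, the pseudouridine synthase dyskerin, had a log2 fold change of -0.13 ± 0.11. Its 3 probe sets did not share a sign (-0.13, 0.13 and -0.35). The small core proteins Nhp2, Nop10 and Gar1 had -0.14, -0.068 and -0.004, and the 95% interval of Gar1 ran from -0.24 to 0.23. Nolc1, a chaperone that binds both classes, had -0.18 ± 0.18 by its brightest probe set and -0.51 and -0.44 by the other probe sets.

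Of the 12 measured genes of 60S assembly, 10 had a lower mean, with a median log2 fold change of -0.20. Beside Ppan and Nop2, Noc2l was at 10.39, 10.37 and 10.02 in WT and at 9.86, 9.94 and 10.11 in N1-IC, and its log2 fold change was -0.29 ± 0.14. WT replicate 3 was below N1-IC replicate 3, so its groups overlapped, and its other probe set had 0.0039. Noc3l, which works in a complex with Noc2l, had 0.080 by its brightest probe set and -0.56 by the other. The PeBoW complex, made of Pes1, Bop1 and Wdr12, had log2 fold changes of -0.15 ± 0.10, -0.20 ± 0.18 and -0.02 ± 0.08. Wdr12 was at 11.70 to 11.71 on the WT arrays and 11.64 to 11.72 on the N1-IC arrays, and its interval ran from -0.21 to 0.17. Other probe sets had 0.11 for Bop1 and 0.16 and 0.0029 for Wdr12. That of Bop1 was at only 3.37 to 4.50 log2 units on the arrays, and the Wdr12 probe set with 0.0029 was at 2.52 to 2.74.

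The other 60S genes spread on both sides of 0. Ddx18, an RNA helicase, had a log2 fold change of -0.26, and Gnl3 (nucleostemin), a nucleolar GTPase of proliferating cells, had -0.22. Another Ddx18 probe set, at 10.40 to 10.81 log2 units on the arrays, had -0.020. Its dimmest probe set, at 4.45 to 5.18, had -0.28. Nop16 had -0.20, with N1-IC replicate 2 at 9.26 against 9.60 to 10.03 elsewhere, and its other probe set had 0.20. Rrp1b had -0.045. Rrs1, which helps to load the 5S particle, had the highest log2 fold change of the list, 0.21 ± 0.14. It was at 11.83, 11.88 and 12.29 in WT and at 12.27, 12.12 and 12.26 in N1-IC, so that WT replicate 3 was the highest array and the groups overlapped. Its other probe set also had a higher mean in N1-IC (0.28).

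The 40S assembly genes had the lowest median of the steps (-0.23), with 10 of 11 lower and 4 of 11 separated downwards, where 6.52% of all genes and 8.79% of those at or above the median level separated this way. Beside Utp20 and Ltv1, Nop14, another component of the small subunit processome, was at 10.29, 10.46 and 10.08 in WT and at 9.87, 9.96 and 10.07 in N1-IC. WT replicate 3 and N1-IC replicate 3 differed by 0.0085 while the other arrays lay apart, and the log2 fold change was -0.31 ± 0.13. Imp4, a protein of the U3 particle, was at 10.83, 10.85 and 10.71 in WT and at 10.57, 10.43 and 10.70 in N1-IC, and its log2 fold change was -0.23 ± 0.11 with the same near contact of the third replicates. Its other probe sets had 0.087 and -0.26, both with overlapping groups. Rrp12, which is needed for export of the precursors, had -0.24 ± 0.15.

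By their brightest probe sets the remaining 40S genes were nearer to 0. Nat10, the acetyltransferase of the small subunit RNA, had a log2 fold change of -0.19 by its brightest probe set. The other had 0.33 and was at 5.50 to 6.14 log2 units on the arrays. Wdr75, of the early processome, likewise had -0.19 by its brightest probe set and 0.18 by the other, which was at 5.44 to 6.50. Noc4l had -0.057 by its brightest probe set and -0.32, -0.26 and 0.037 by the others. The GTPase-like factor gene Tsr1 had -0.007 with an interval from -0.30 to 0.28, and -0.16 by its other probe set. Wdr43, a partner of Wdr75 in the processome, was the single 40S gene with a higher mean (0.064, and -0.13 by its other probe set), while Tsr1 was at 0.018 after a further quantile normalization and at 0.0069 with arrays centred on their medians.

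The 5 genes for nucleolar proteins with several roles had log2 fold changes from -0.21 to 0.077. Npm1 (nucleophosmin), a histone and ribosome chaperone that is often mutated in acute myeloid leukaemia, was at 13.39, 13.35 and 13.52 in WT and at 13.44, 13.38 and 13.48 in N1-IC. Its log2 fold change was 0.014 ± 0.090, with an interval from -0.20 to 0.23, and it was at -0.011 after a further quantile normalization. Ncl (nucleolin), which binds the nascent ribosomal RNA, had -0.086 by its brightest probe set and from -0.35 to 0.0016 by the others. Mybbp1a, a nucleolar regulator of transcription, had -0.21, and Lyar, a nucleolar zinc finger protein of growing cells, had -0.18. Ddx21, a nucleolar RNA helicase, was at 12.81, 12.79 and 12.88 in WT and at 12.90, 12.89 and 12.92 in N1-IC. It was higher on every N1-IC array, with a log2 fold change of 0.077 ± 0.08, but its other probe set had -0.26.

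Some members also carry snoRNA genes inside their own gene bounds. In the RefSeq gene table of GRCm38.p6, 8 of the 43 genes enclosed at least 1 snoRNA gene, against 1.70% of 21900 protein-coding genes. They were Nop56 with 5, Nop58 with 4, Gnl3 and Wdr43 with 3 each, Ppan and Ncl with 2 each, and Dkc1 and Tsr1 with 1 each. Their log2 fold changes ran from -0.52 (Ppan) to 0.064 (Wdr43). The snoRNAs themselves were not analysed here.

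Other genes of the pathway, from a list of 130, also had lower means for the most part. Of 124 measured, 90 had a lower mean in N1-IC (72.6%), 20 separated downwards (16.1%) and 3 upwards, where 6.52% and 8.32% of all genes did, and the median log2 fold change was -0.10. By limma 0 were called, and 5 had an unadjusted p under 0.05, of which 4 were lower. The lowest among the separated genes were Dhx37, a helicase of the small subunit processome (-0.81 ± 0.33), Pop1, of RNase MRP (-0.38 ± 0.18), and Heatr1, of the early processome (-0.33 ± 0.16). For Dhx37 the N1-IC arrays were at 7.99, 6.69 and 7.51, with replicate 2 the lowest, and the WT arrays were at 8.27, 8.35 and 7.99. Its groups nearly touched, with N1-IC replicate 1 at 7.9891 and WT replicate 3 at 7.9907. The separated genes with a higher mean were Utp6 (0.35 ± 0.10), Urb1 (0.29 ± 0.13) and Exosc4 (0.098 ± 0.08). The groups of Urb1 nearly touched, with WT replicate 3 at 7.0320 and N1-IC replicate 1 at 7.0326. Those of Exosc4 did so too, with WT replicate 2 at 11.5232 and N1-IC replicate 2 at 11.5235. Medians of the steps were -0.16 for 7 RNA polymerase I genes, -0.13 for 7 snoRNP genes, -0.14 for 47 60S genes, -0.098 for 43 40S genes and -0.081 for 20 genes of the exosome and RNase MRP.

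Genes for proteins of the finished ribosomes were set beside them. Of 47 cytosolic ribosomal protein genes by symbol (Rpl or Rps and a number, which also takes in Rps19bp1, a binding protein), 21 had a lower mean, and their median log2 fold change was 0.01. Their single log2 fold changes ran from -0.91 to 2.17, while on single arrays their median deviated by -0.017 to 0.018. Of 76 mitochondrial ribosomal protein genes 62 had a lower mean (81.6%), 16 separated downwards (21.1%, against 6.52% of all genes) and the median was -0.12. These lists are set side by side, and the differences between them were not tested.

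**Figure D4:**
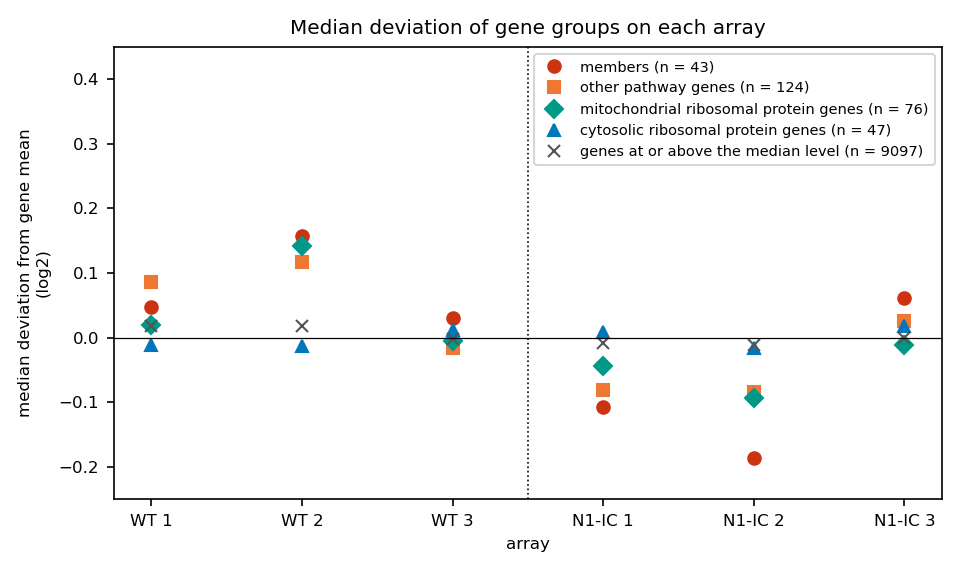
Median deviation from each gene's mean over the 6 arrays (log2, y axis) for 5 sets of genes on each array (x axis), with the number of genes in the legend. The 43 ribosome biogenesis genes are lowest on N1-IC replicates 1 and 2 (-0.107 and -0.187) and highest on WT replicate 2 (0.157), while cytosolic ribosomal protein genes stay near 0.

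Myc itself was at 11.47, 11.25 and 10.89 in WT and at 10.40, 10.51 and 11.06 in N1-IC. N1-IC replicates 1 and 2 were below all WT arrays and N1-IC replicate 3 was inside the WT range, and the log2 fold change was -0.55 ± 0.23 with a limma adjusted p of 0.618. Its part in the values of the nucleolar genes was not tested. The list of 10 Myc network genes had 6 lower and 4 higher means and a median of -0.025, with Max at -0.026 and Mycn at -0.24. Of these 10, Mxd4 (-0.42) separated downwards and Mlx (0.10) upwards, where 6.52% and 8.32% of all genes did. The Notch target Nrarp was at 7.22, 6.96 and 6.41 in WT and at 8.01, 9.74 and 11.33 in N1-IC, and Hes1 at 5.52 to 6.12 in WT and at 6.44, 6.80 and 7.88 in N1-IC. The array with the highest level of both targets, N1-IC replicate 3, was thus the N1-IC array with the highest median of the ribosome biogenesis genes, and whether these levels are linked was not tested. Of 11 cell cycle genes 6 had a lower and 5 a higher mean, with a median log2 fold change of -0.073. Their array medians ran from -0.206 in WT replicate 1 to 0.116 in WT replicate 2, in another order than those of the nucleolar genes.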

How the data were processed

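The authors deposited 1 intensity per probe set and array on a linear scale for 6 Affymetrix arrays. The submitters' processing notes name RMA, and no version of it was named in the sources used here. Per the labels, 5 ng of RNA was amplified and labelled with biotin. Intensities were taken to log2 with no offset. By the platform annotation 34958 of 45101 probe sets carried 1 symbol, 932 carried several and 9211 were without one. The brightest probe set by mean log2 stood for each of 18194 genes. N1-IC was compared with WT over all genes by lmFit and eBayes of limma 3.58.1 under R 4.3.3, without a replicate block, with Benjamini-Hochberg adjustment and a threshold of 0.05. The fit was tested on simulated data. No detection calls, scanner files or batch labels were used. The genes, steps and lists were chosen with earlier results of these data known. All 43 measured members are named, and of the other pathway genes the 3 lowest and 3 highest by log2 fold change among those whose groups did not overlap. Counts and medians of lists are descriptions without a test. Alternatives covered the variance model, array weights, scaling, a filter on level, the choice of probe set, the replicate block, an offset, thresholds and each array left out. The number of arrays limits the precision.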

Additional observations from a re-analysis of the deposited data

How the results depend on the processing

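In every setting tried 0 of the ribosome biogenesis genes were called by limma, and their median log2 fold change was below 0, between -0.26 and -0.16 in the settings that kept all arrays. The count of all genes called was 1, and it became 3 with a mean-variance trend, 2 with array weights, 2 when dim genes were left out, 5 with probe sets averaged per gene, 4 at an adjusted p under 0.1 and 0 with a replicate block. Leaving out 1 array at a time gave 0 (without WT replicate 3) to 5 (without WT replicate 2) genes called, and 6 (without N1-IC replicate 1) to 25 (without N1-IC replicate 3) of 43 ribosome biogenesis genes with separated, lower groups, where 10.1% and 13.1% of all genes separated this way in the same fits. With the replicate block 1 ribosome biogenesis gene had an unadjusted p under 0.05, against 5 without it. Same-numbered samples did not deviate together from their group means in every pair (r of 0.009, 0.061 and -0.11 across genes for replicates 1, 2 and 3), so the numbers were not treated as pairs.

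Several genes changed sign, among them Noc2l, Imp4, Bop1, Nop16, Nat10 and Wdr75, whose main log2 fold changes were -0.29 to -0.19. These named genes did so only where another probe set was taken or the probe sets of a gene were averaged. Why probe sets of a gene differ was not tested. With a further quantile normalization Tsr1 was at 0.018 and Npm1 at -0.011, and with arrays centred on medians Gar1 was at 0.011 and Tsr1 at 0.0069. With probe sets averaged per gene Polr1c was at -0.11, Wdr12 at 0.048, Nop16 at 0.00062, Noc3l at -0.24, Wdr43 at -0.033, Nat10 at 0.068, Npm1 at -0.018 and Ddx21 at -0.091. With the probe set of largest SD Polr1c was at -0.23, Bop1 at 0.11, Wdr12 at 0.16, Nop16 at 0.20, Noc2l at 0.0039, Noc3l at -0.56, Wdr43 at -0.13, Wdr75 at 0.18, Imp4 at 0.087, Nat10 at 0.33 and Ddx21 at -0.26. With 1 array left out, log2 fold changes ran from -0.070 to 0.12 for Polr1c, -0.21 to 0.11 for Polr1e, -0.063 to 0.041 for Gar1, -0.15 to 0.051 for Rrp1b, -0.19 to 0.044 for Noc4l, -0.094 to 0.057 for Tsr1, -0.021 to 0.065 for Npm1, -0.043 to 0.14 for Noc3l and -0.038 to 0.0045 for Wdr12. Of the 430 values with all arrays kept 23 had another sign than the main one, and of the 258 with 1 array left out 21 did.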

Other observations

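Probe sets of the same gene often differed in size of change. The 43 genes had 87 probe sets, of which 68 had a lower mean in N1-IC. Of the 30 genes with several probe sets, 14 had a lower mean on all of them. The 44 probe sets that were not the brightest of their gene had a median log2 fold change of -0.21, and 32 of them were lower. Over all 45101 probe sets none of the 87 was called by limma, with a smallest adjusted p of 0.639. How many of all probe sets were called in that fit or had a lower mean was not counted. Over the 18194 genes, each by its brightest probe set, 47.4% had a lower mean. For Noc3l the brighter probe set overlapped between the groups (0.080), while the dimmer had -0.56. That probe set was at 7.36, 7.27 and 8.17 in N1-IC, where the first and second values were below all WT arrays and the third was inside the WT range. Ubtf had -0.11 by its brightest probe set and -0.31 by the other, which separated the groups.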
